A study of Mus musculus with 6 samples.

Results

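The cytosolic ribosomal protein genes encode the protein part of the ribosome that works in the cytoplasm, and their mRNAs are described here in primary mouse mesangial cells, which hold the capillary tuft of a kidney filter together and can contract. Members were chosen by gene symbol alone, as rows of the expression table named Rpl or Rps followed by a number, with an optional a, x, y or l ending, together with Rplp0, Rplp1, Rplp2 and Rpsa. Pseudogene rows and the Rps6k kinases were kept out. The rule found 80 of the 19730 rows, 33 for proteins of the small (40S) subunit and 47 for proteins of the large (60S) subunit. A few cytosolic ribosomal proteins carry other symbols, and Rpl13, Rpl19 and Rpl41 were not analysed here.

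RNA-Seq was performed on 3 Control libraries and 3 libraries of cells given transforming growth factor beta 1 (TGF-β1), a secreted protein that drives scarring of the kidney, at 10 ng/ml for 72 h. Both groups were primary cultures at passage 3 to 6, kept in medium of high glucose (25.5 mM) with 20% serum, so the Control cells also carried high glucose and serum. The labels do not say whether these came from separate cultures, so p-values measure the spread between libraries, which may be technical. Depth, recovered from the steps between low values, was 10.12 to 11.07 M fragments per library (M, mega). Of the mesangial markers, Acta2, Myl9, Tagln and Pdgfrb were present, while Des, Itga8, Thy1 and Cspg4 averaged under 1 FPKM. The mesangial list summed to 1683 to 1945 FPKM in Control and 6093 to 7074 FPKM with TGF-β1, with Acta2, Myl9 and Tagln called higher and Pdgfrb lower. Markers of endothelium summed to at most 0.162 FPKM, and Ptprc, which defines leukocytes, was at a mean of 0.0144 FPKM. The summed epithelial list, most of it Cldn2, was 32.2 to 33.8 FPKM in Control and 2.08 to 2.53 FPKM with TGF-β1, the podocyte list 13.8 to 15.4 and 8.51 to 10.1 FPKM, and the macrophage list, mostly Csf1r and Cd68, 8.19 to 9.58 and 2.26 to 3.24 FPKM. Their part in the results below was not tested.

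A ribosome is built from a small and a large subunit, each of them rRNA wrapped in a set of proteins. Most of these proteins are needed in equal numbers. The small subunit reads the mRNA, and the large subunit joins the amino acids and lets the new chain out through an exit tunnel. Ribosomal protein mRNAs are among the most abundant in any dividing cell, and they are known for a terminal oligopyrimidine (TOP) tract, a run of C and T at the very start of the mRNA, through which mTORC1 signalling and the RNA-binding protein Larp1 set how well they are translated. Their transcription is known to respond to Myc. Growth of mesangial cells and synthesis of matrix both draw on the supply of ribosomes.

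The start sites of members are shown first because the TOP tract is the feature that these mRNAs share by sequence. Of the 80 members, 58 were matched by symbol in the RefSeq table of gene starts (build GRCm38.p6). A tract was called where the annotated start was a C and the next 4 bases were each C or T, read on the strand of the gene. The starts of 6 members follow, each with 10 bases before the start and 20 from it, 5′ to 3′, with the unbroken run of C and T from the start in capitals. Rps6, Rpl35 and Rpl14 are shown because they rose with TGF-β1, Rpl35a because it is a disease gene named below, and Rplp2 and Rpl28 because single libraries were low for them.
Rps6: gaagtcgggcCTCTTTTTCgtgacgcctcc
Rpl35: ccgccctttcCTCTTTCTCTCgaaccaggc
Rpl14: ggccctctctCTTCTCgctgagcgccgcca
Rpl35a: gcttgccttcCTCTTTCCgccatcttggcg
Rplp2: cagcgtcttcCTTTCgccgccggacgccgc
Rpl28: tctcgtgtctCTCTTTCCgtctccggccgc
These windows lie at chr4:86857348-86857377 (minus strand) for Rps6, chr2:39005112-39005141 (minus strand) for Rpl35, chr9:120571507-120571536 (plus strand) for Rpl14, chr16:33056472-33056501 (plus strand) for Rpl35a, chr7:141447641-141447670 (plus strand) for Rplp2 and chr7:4792955-4792984 (plus strand) for Rpl28.

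The tract began at the annotated base in 13 of 58 matched members, which is 22.4% (95% Wilson interval 13.6% to 34.7%), against 3.01% of 27025 genes in the table. With a T also allowed as the first base it was found in 16 members (27.6%) against 5.28% of genes. When any base within 5 of the annotated one could serve as the start, 28 members (48.3%) had the tract against 21.2% of genes, so the share depends strongly on where a start is annotated. A run of a C and 5 further pyrimidines anywhere within 25 bases of the start stood on the strand of the gene in 40 members (69.0%, against 38.5% of genes). On the opposite strand the same run stood in 14 members (24.1%, against 42.1% of genes). The 13 members with the tract at the annotated base were Rpl14, Rpl15, Rpl28, Rpl35, Rpl35a, Rpl38, Rplp2, Rps10, Rps15a, Rps18, Rps21, Rps27 and Rps6. Of these 13, 3 were called higher with TGF-β1 in the comparison below: Rps6, Rpl35 and Rpl14, shown above. Among all members tested 19.2% were called higher, and among all rows tested 24.5%. A link between tract and change was not tested. A match is a description of the sequence, and translation was not measured.

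Expression was given as FPKM, the fragments of a transcript per kilobase of its length and per M mapped fragments. The scale adjusts for length, so that levels of different genes can be set side by side. Whether a value covers the gene or the listed transcript is not stated, which limits such comparisons. Over the 6 libraries, 48 members had a mean above 1000 FPKM, 27 lay between 300 and 1000 FPKM and 3 members that could be tested lay under 300 FPKM. The 3 highest were Rpl13a, Rps24 and Rps26. Rpl13a, a protein of the large subunit whose gene also hosts 4 small nucleolar RNAs, was at 5376, 6537 and 4102 FPKM in Control 1 to 3 and at 7296, 8652 and 7362 FPKM in TGF-β1 1 to 3. Rps24 was at 5735, 5950.3 and 4335 FPKM in Control and 6187, 6555 and 5853 FPKM with TGF-β1, and Rps26, which lies at the mRNA exit channel, at 4734, 4048 and 3284 and 5116, 4331 and 4947 FPKM. Control 3 was the lowest library for all 3 genes. The Rpl13a groups did not overlap, but none of the 3 was called, with adjusted p-values of 0.0635, 0.304 and 0.249 (limma). At the low end were the paralogues Rpl7l1, Rpl22l1 and Rps4y2, and Rpl3l and Rpl39l fell under the filter for testing.

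The comparison of TGF-β1 with Control asks whether mRNAs of the ribosome changed with the treatment. Most ribosomal protein mRNAs had a slightly higher mean with TGF-β1 than in Control, but few of the differences were called. Changes are given as log2 differences of FPKM + 1, which for genes at these levels is close to the log2 ratio, and a gene was called at an adjusted p under 0.05 in limma, fitted to all 11898 rows with a mean of at least 1 FPKM. Of the 78 members tested, 15 rose, 1 fell and 62 were not called. The share called was 20.5%, below the 48.1% of all tested rows that were called. The share called higher was 19.2% against 24.5% of all rows, 23.6% of rows were called lower, and no member was called and changed by at least 2-fold, against 13.9% of rows. The mean was above that of Control in 64 of 78 members (82.1%), against 48.8% of all rows, and in 43 of 78 when libraries were scaled to the sum of protein-coding rows. The median log2 change was 0.23, against -0.017 over all rows, and 68 members had a change smaller than 0.5 in size. In 36 members (46.2%) every TGF-β1 library was above every Control library, against 29.9% of rows, and in 1 member every TGF-β1 library was below, against 29.5%. That scaling moved the median of all rows to -0.19 and left 5 members called beside 49.9% of rows (4 members higher and 1 lower, where all rows split into 2015 higher and 3927 lower), with a median of 0.038 for the members, 0.22 above that of all rows, against 0.25 without that scaling.

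The count of called members rested on single libraries. It was 2 without TGF-β1 1 (beside 37.1% of all rows), 7 without TGF-β1 3 (39.4%), 8 without Control 2 (39.7%) and 9 without TGF-β1 2 (43.4%). It was 12 without Control 1 (41.7% of rows) and 17 without Control 3 (45.8%). Of the 16 called with all libraries, Rps27l and Rpsa were still called without each library in turn. Rpl21 and Rps27a lost their call without TGF-β1 1 (adjusted p = 0.0584 and 0.0604, limma), and Rps12 without TGF-β1 1 or TGF-β1 3 (adjusted p = 0.0616 and 0.0554). Rps25 lost it without Control 1 or TGF-β1 1, and Rpl8, Rpl32, Rpl35, Rpl27a, Rps6, Rps2, Rps3, Rpl12, Rpl34 and Rpl14 without TGF-β1 1 and at least 1 other library. The signs of these 16 changes were the same in all 20 alternatives.

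**Figure D1:**
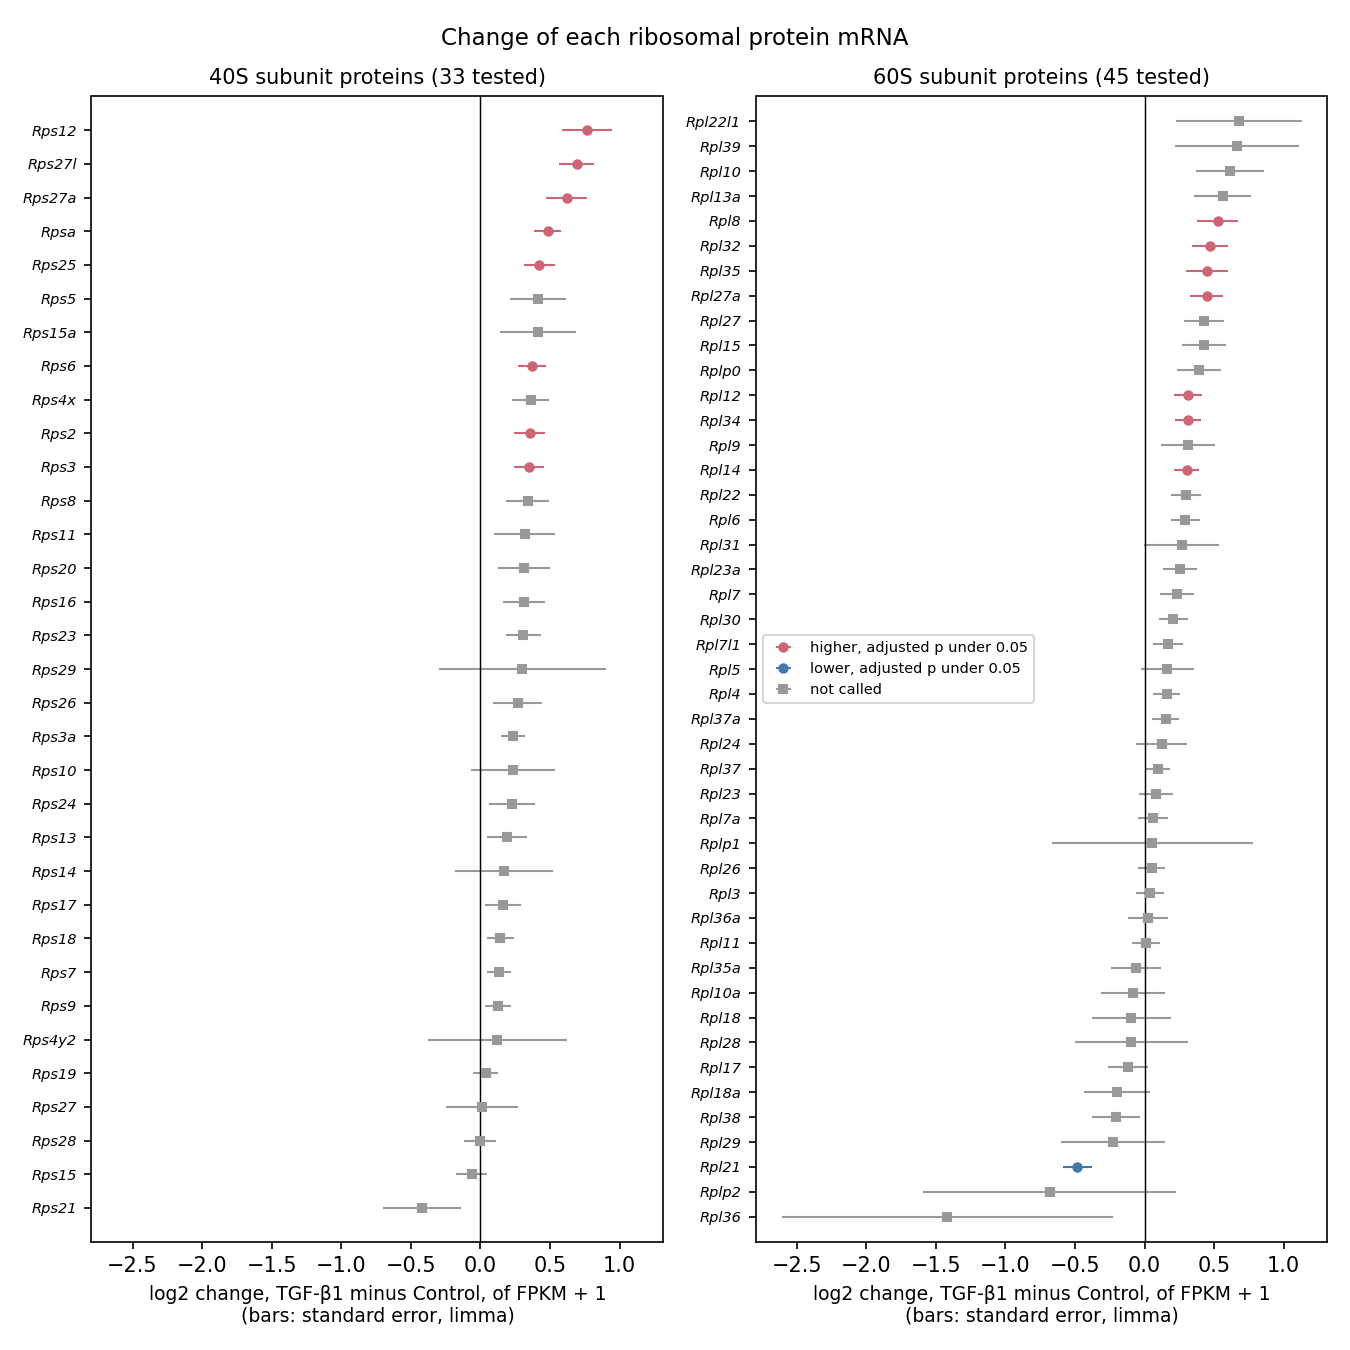
Log2 change (TGF-β1 minus Control, of FPKM + 1) of each of the 78 members tested, 33 of the small subunit on the left and 45 of the large subunit on the right, with the standard error from limma as bars. The 15 members called higher and Rpl21, the 1 called lower, are circles, and most grey squares (not called) also lie to the right of 0; Rpl36 and Rplp2 lie far to the left with the widest bars.

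Small-subunit mRNAs made up 8 of the 15 that rose and none of those that fell, out of 33 tested. The share called higher was 24.2%, near the 24.5% of all tested rows. The median change of the 33 was 0.30, and 30 of them (90.9%) had a positive change, against 48.8% of all rows. In 17 (51.5%) every TGF-β1 library was above every Control library, against 29.9% of rows. The largest change was that of Rps12 (chr10:23504990-23507015 on mm9, minus strand), a protein of the beak of the small subunit whose gene hosts 3 small nucleolar RNAs. Rps12 was at 3259.7, 3194 and 2847 FPKM in Control 1 to 3 and at 5939, 4155 and 5925 FPKM in TGF-β1 1 to 3. The lowest TGF-β1 library, number 2, still lay above all Control libraries, and the means were 3100.2 ± 222 and 5339.6 ± 1026 FPKM (SD, n = 3), a log2 change of 0.77 (standard error 0.18, adjusted p = 0.014, limma). Its only annotated transcript collected 9758 to 20717 fragments per library, so counting error is small beside the spread between libraries.

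Rps27l (chr9:66793893-66797323, plus strand), a close relative of Rps27 that is known as a p53 target, was at 759, 686 and 569 FPKM in Control and at 1115, 1091 and 1024 FPKM with TGF-β1. The TGF-β1 libraries lay close together and well above the highest Control library, and the log2 change was 0.69 (standard error 0.13, adjusted p = 0.00573, limma). It was the member with the steadiest call, past the threshold in 20 of 20 alternative analyses. Rps27a (chr11:29445846-29448109, minus strand), which is made as a fusion with ubiquitin and so supplies both, was at 1402, 1604 and 1148 FPKM in Control and 2220.1, 2064 and 2042 FPKM with TGF-β1. Again all treated libraries exceeded all controls, by a log2 change of 0.62 (adjusted p = 0.0144, limma). The transcript listed for Rps27a is annotated as a non-coding processed transcript, and the gene overlaps 1700034F02Rik on the opposite strand, so its reads may be shared.

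Rpsa (chr9:120036884-120041487, plus strand), which is also known as the laminin receptor and sits at the mRNA exit site of the small subunit, had the tightest controls, at 623, 607 and 627 FPKM, and was at 921, 781 and 902 FPKM with TGF-β1. The groups were far apart relative to the Control spread, with a log2 change of 0.48 (standard error 0.098, adjusted p = 0.00815, limma). Rps25 (chr9:44215797-44218488), known for its part in initiation at internal entry sites, was at 896, 924 and 813 FPKM in Control and 1126, 1308 and 1104 FPKM with TGF-β1. Rps6 (chr4:86500564-86503316), the substrate of the S6 kinases downstream of mTORC1, was at 1222, 1212 and 1274 FPKM in Control and 1555, 1754 and 1498 FPKM with TGF-β1. Both genes had TGF-β1 2 as the highest library and no overlap between groups, with log2 changes of 0.42 (adjusted p = 0.0213) and 0.37 (adjusted p = 0.0264, limma). The other small-subunit mRNAs that rose were Rps2 and Rps3, which line the channel where the mRNA enters. Rps2 was at 2261, 1999 and 2368 FPKM in Control and 2819, 2842 and 2789 FPKM with TGF-β1, and Rps3 at 468, 449 and 385 and 543, 585 and 525 FPKM. Neither pair of groups overlapped, and the log2 changes were 0.35 (adjusted p = 0.041) and 0.35 (adjusted p = 0.036, limma). Rps2 was called in 9 of 20 alternatives and Rps3 in 10. Rps2 overlaps the opposite-strand genes Snhg9 and Snora78, and Rps25 overlaps Ccdc84, which leaves their reads uncertain because use of strand is not stated.

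Of the 25 small-subunit mRNAs that were not called, 22 had a positive mean change. Rps21, which had the most negative one, was at 791, 705 and 1267 FPKM in Control and 740.2, 494 and 807 FPKM with TGF-β1, a log2 change of -0.42 (adjusted p = 0.262, limma). Control 3 alone was high, and the groups overlapped. Without Control 3 and TGF-β1 2 the change of Rps21 was 0.049, of the opposite sign.

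Large-subunit mRNAs included 7 that rose and 1 that fell, out of 45 tested. The share called was 17.8% (15.6% higher), below the 48.1% of all tested rows (24.5% higher). The median change was 0.16, and 34 (75.6%) had a positive change, against 48.8% of all rows. In 19 (42.2%) every TGF-β1 library was above every Control library, against 29.9% of rows. In 1 every TGF-β1 library was below, against 29.5%. The difference between the subunits was not tested. Rpl8 (chr15:76734501-76736748, plus strand), which reaches close to the peptidyl transferase centre where amino acids are joined, was at 1021, 874 and 829 FPKM in Control 1 to 3 and at 1422, 1089.9 and 1426 FPKM in TGF-β1 1 to 3. TGF-β1 2 was the lowest treated library and lay just above Control 1, and the log2 change was 0.53 (standard error 0.15, adjusted p = 0.0284, limma). Rpl32 (chr6:115755523-115758765) was at 2552, 2719 and 2567 FPKM in Control and 3510.5, 4097 and 3296 FPKM with TGF-β1. Here TGF-β1 2 was the highest library, the groups were clearly apart, and the log2 change was 0.47 (standard error 0.13, adjusted p = 0.0236, limma).

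Rpl35 (chr2:38857100-38861144), a protein at the rim of the exit tunnel, was at 1073, 1167 and 816 FPKM in Control and 1368, 1417 and 1337 FPKM with TGF-β1. Rpl27a (chr7:116662661-116665881) was at 600.0, 519 and 625 FPKM in Control and 832, 705 and 841 FPKM with TGF-β1. In both, the lowest treated library exceeded the highest control, with log2 changes of 0.45 (adjusted p = 0.0495) and 0.45 (adjusted p = 0.0228, limma). Rpl35 lay at the edge of the threshold, was called in 9 of 20 alternatives and overlaps Wdr38 on the opposite strand. The remaining 3 were Rpl12, at the base of the stalk that binds translation factors, Rpl34 and Rpl14. Rpl12 overlaps Lrsam1 on the opposite strand. Rpl12 was at 1487, 1356 and 1374 FPKM in Control and 1793, 1816 and 1636 FPKM with TGF-β1, Rpl34 at 1473, 1583 and 1505 and 1923, 1919.8 and 1815 FPKM, and Rpl14 at 847, 822 and 738 and 985, 994 and 984 FPKM. These were small and even shifts, with log2 changes of 0.31, 0.31 and 0.30 and adjusted p-values of 0.0425, 0.0357 and 0.0369 (limma). Rpl12, Rpl34 and Rpl14 were called in 7, 8 and 9 of 20 alternatives, so their calls were no steadier than that of Rpl35.

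Rpl21 (chr5:147644466-147648608, plus strand), whose gene hosts 2 small nucleolar RNAs, was the member that fell. It was at 2793, 2654 and 2787 FPKM in Control 1 to 3 and at 1906, 2091 and 1897 FPKM in TGF-β1 1 to 3. The libraries within each group were close, the groups were well apart, and the means were 2745 ± 78.8 and 1965 ± 109 FPKM (SD, n = 3), a log2 change of -0.48 (standard error 0.10, adjusted p = 0.00978, limma). The call was made in 19 of 20 alternatives, with adjusted p-values of 0.00279 to 0.0584. The listed transcript is 1 of 6 annotated for the gene, and the sources used here do not state which of them, or the gene, a row's value covers.

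**Figure D2:**
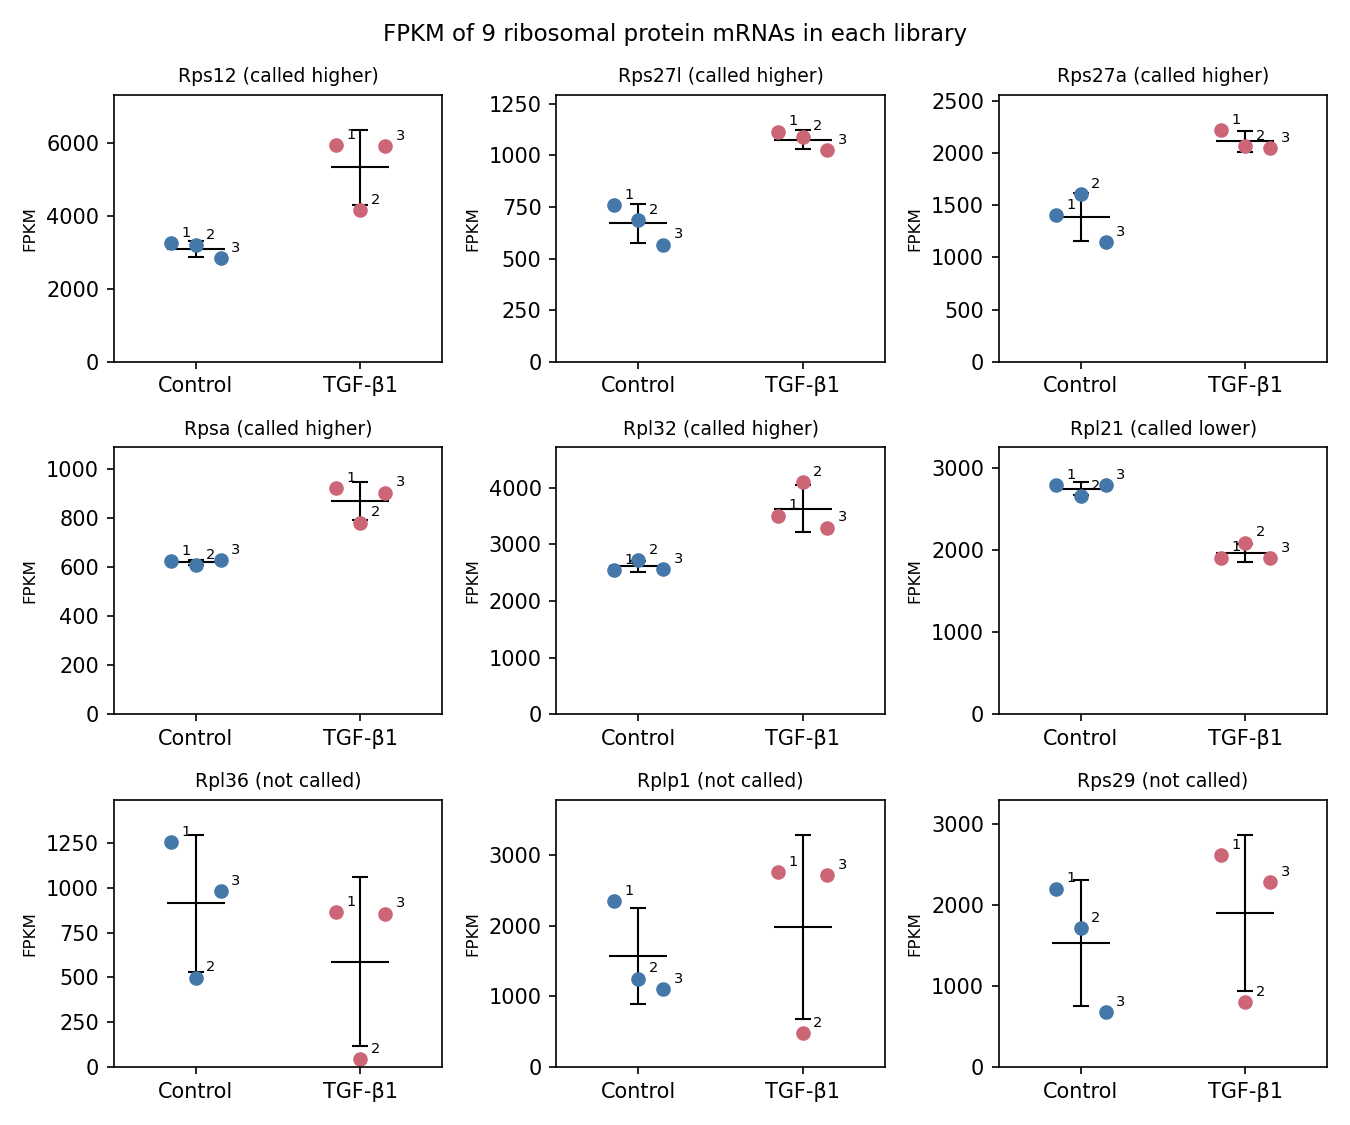
FPKM of 9 members in each library (points, numbered by replicate) with the mean and SD of 3 libraries as black bars, from 0. In the upper rows the TGF-β1 libraries of Rps12, Rps27l, Rps27a, Rpsa and Rpl32 lie above all Control libraries and those of Rpl21 below them, while in the bottom row Rpl36, Rplp1 and Rps29 have single libraries (TGF-β1 2, and Control 3 for Rps29) far from the others and overlapping groups.

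The 4 large-subunit mRNAs with the most positive changes, Rpl22l1, Rpl39, Rpl10 and Rpl13a, were not called. Rpl10, which joins the large subunit late in its assembly, was at 2385, 2319 and 1327 FPKM in Control and 2894, 3230.1 and 2804 FPKM with TGF-β1. Every treated library was above every control, yet Control 3 lay far below the other controls, and the change of 0.61 had an adjusted p of 0.0827 (limma). Rpl39, a small protein of the exit tunnel wall, was at 836, 687 and 245 FPKM in Control and 820.5, 806 and 852 FPKM with TGF-β1. The treated libraries were nearly equal and matched Control 1, and only Control 3 was low, with a change of 0.67 (adjusted p = 0.261, limma). Without Control 3 and TGF-β1 2 the change of Rpl39 was 0.14. Rpl10, Rps21 and, in the next paragraph, Rpl28, Rpl36, Rps14 and Rps29 were singled out after their values had been seen.

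A few members were far lower in single libraries than in the others of the group. Control 3 was more than 2-fold below both other Control libraries in 5 of 78 members (Rpl22l1, Rpl28, Rpl39, Rps14 and Rps29), which is 6.41% against 1.31% of all tested rows. TGF-β1 2 was more than 2-fold below both others in 6 members (Rpl29, Rpl36, Rplp1, Rplp2, Rps29 and Rps4y2), 7.69% against 3.45% of rows, and in no other library did any member fall that low. Rpl36 (chr17:56752818-56753666) was the most extreme, at 1256, 499 and 984 FPKM in Control 1 to 3 and 866, 42.6 and 856 FPKM in TGF-β1 1 to 3. Control 2 was the lowest Control library, at 1130 fragments against 2850 and 2175 in Control 1 and 3. Among the treated libraries TGF-β1 2 alone was low, by a factor of 20.3 between the highest and lowest. That value rested on 88 fragments against 1947 and 1898 in TGF-β1 1 and 3. The resulting mean change of -1.42 had a standard error of 1.19 (adjusted p = 0.363, limma), and it was 0.12 without Control 3 and TGF-β1 2. Rps29 was at 2202, 1718 and 678 FPKM in Control and 2619, 802 and 2282 FPKM with TGF-β1, so that it was low in both of these libraries. Rpl28 was at 1777, 1418 and 608 FPKM in Control and 1244, 859.9 and 1174 FPKM with TGF-β1, and Rps14 at 2420.1, 2493 and 1021 and 2247, 1885 and 2076 FPKM. In both, Control 3 stood far below Control 1 and 2 while the treated libraries were near each other.

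The GC content of the listed transcripts moved with the deviation of TGF-β1 2. The 6 transcripts low in that library were Rpl36 at 60.9% GC, Rps4y2 at 59.1%, Rplp1 at 57.4%, Rpl29 at 56.8%, Rplp2 at 55% and Rps29 at 53.1%. The 5 low in Control 3 spread more widely, with Rpl22l1 at 42.9%, Rpl39 at 48.7%, Rps29 at 53.1%, Rps14 at 55.2% and Rpl28 at 57.3%. Over the 78 members, Spearman's rho between GC content and the deviation of TGF-β1 2 from the other treated libraries was -0.38, and it was -0.39 over 10791 protein-coding rows. For TGF-β1 1 and 3 it was 0.37 and 0.40 over members, and these values are tied to that of TGF-β1 2, since each library was set against the other treated libraries. Over members it was 0.096 for Control 1, -0.23 for Control 2 and 0.15 for Control 3. The part of GC content in any result was not tested. The spread of members, as the median SD of log2(FPKM + 1), was 0.21 among Control libraries and 0.081 among TGF-β1 libraries, against 0.15 and 0.12 over all tested rows. Without Control 3 and TGF-β1 2, a choice made after seeing the data, 12 members were called (11 higher, 1 lower) beside 44.4% of all rows. The median change over all 78 members was 0.18 in that setting.

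**Figure D3:**
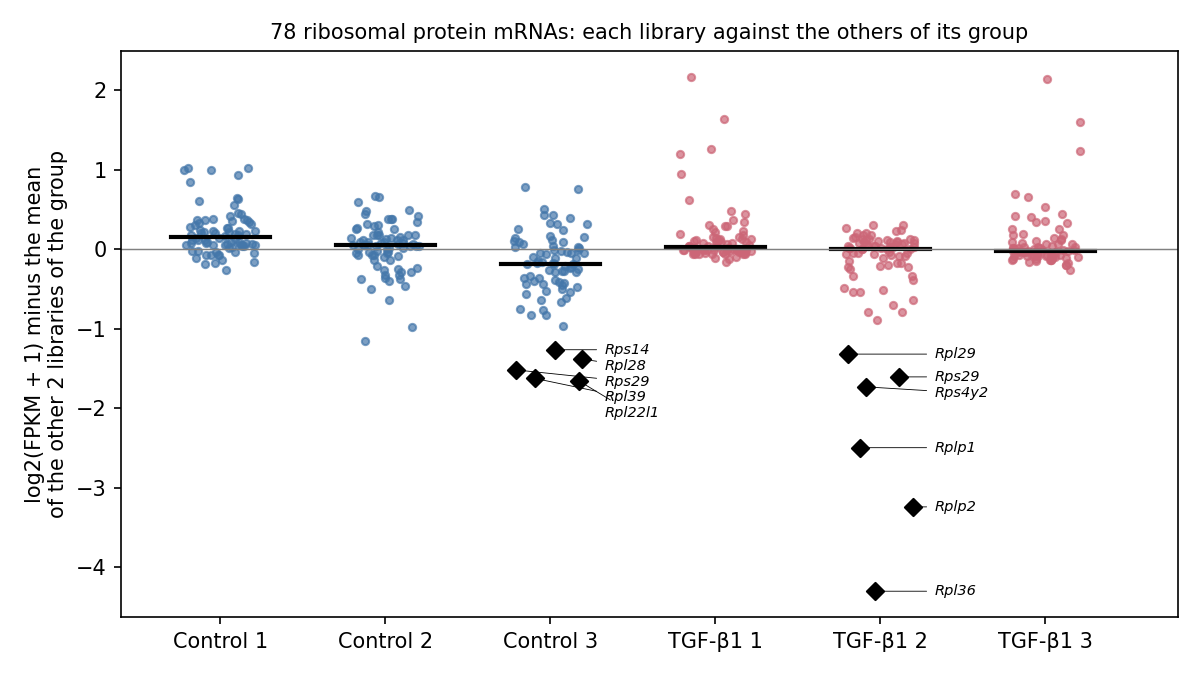
For each library, the log2(FPKM + 1) of the 78 members tested minus the mean of the other 2 libraries of the same group, with the median as a black line. Diamonds mark members more than 2-fold below both other libraries, 5 in Control 3 and 6 in TGF-β1 2; the same genes lie above 0 in the other libraries of the group because each library is compared with the rest.

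The stalk of the large subunit, which binds the elongation factors, is built on Rplp0 and carries Rplp1 and Rplp2 as dimers. Rplp0 was at 2085, 1483 and 1772 FPKM in Control and 2449.7, 2082 and 2422 FPKM with TGF-β1. The lowest treated library lay just under the highest control, and the log2 change of 0.39 was not called (adjusted p = 0.0854, limma). Rplp1 was at 2351, 1252 and 1102 FPKM in Control and 2763, 484 and 2719 FPKM with TGF-β1, and Rplp2 at 826, 479.5 and 1079 and 1001, 104 and 987 FPKM. In both, TGF-β1 2 was the single low treated library, and the lowest Control library was Control 3 for Rplp1 and Control 2 for Rplp2. The changes of Rplp1 and Rplp2 were 0.055 and -0.68, with standard errors of 0.72 and 0.91. Without Control 3 and TGF-β1 2, with 2 libraries left in each group, the changes of Rplp1 and Rplp2 were 0.68 and 0.66 (adjusted p = 0.174 and 0.136, limma), and the sign for Rplp2 was opposite.

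Rpl5 and Rpl11 join the 5S rRNA before it enters the large subunit and, when assembly fails, are known to bind Mdm2 and so stabilise p53. Rpl5 was at 1351, 1240.4 and 894 FPKM in Control and 1378, 1099 and 1393 FPKM with TGF-β1, and Rpl11 at 461, 476 and 555 and 517, 492 and 492 FPKM. The groups overlapped in both, with log2 changes of 0.16 (standard error 0.19) and 0.012 (standard error 0.10). Rps19 and Rpl35a, both mutated in Diamond-Blackfan anaemia, an inherited failure of red cell production, were likewise not called, whereas Rpl35 and Tsr2, also known from rare cases of that disease, were called higher and lower. Rps19 was at 957, 921 and 879.7 FPKM in Control and 930.1, 907 and 992 FPKM with TGF-β1, and Rpl35a at 1037, 968 and 1419 and 1003, 1241 and 1007 FPKM. Rps19 was one of the most even members, with a change of 0.037 (standard error 0.090), whereas Control 3 stood high for Rpl35a, whose change was -0.062 (standard error 0.18). Rps24 and Rps26, whose levels were given above, had changes of 0.23 and 0.27.

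Several members have a paralogue that can replace them in the ribosome or that is expressed in other tissues. The level of Rps27l as a percentage of the level of Rps27 was 17.9%, 16.7% and 24.2% in Control 1 to 3 and 32.8%, 27.3% and 33.4% in TGF-β1 1 to 3, with no overlap. Rps27 itself was at 4248, 4101 and 2345 FPKM in Control and 3400.1, 3993 and 3068 FPKM with TGF-β1. Control 3 was low and the groups overlapped, with a change of 0.0095 (standard error 0.26). Rpl22l1 stood at 20.1%, 16.5% and 6.83% of Rpl22 in Control and at 17.9%, 15.6% and 18.1% with TGF-β1. Here only Control 3 departed, and neither Rpl22l1 (change 0.68, adjusted p = 0.259) nor Rpl22 (change 0.30, adjusted p = 0.0611, limma) was called. Rpl36al, which the symbol rule does not take, was at 25.8%, 25.1% and 22.2% of Rpl36a in Control and at 29.3%, 34.1% and 31.4% with TGF-β1, again without overlap. Rpl36a was even between groups, with a change of 0.027 (standard error 0.14).

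Of the other paralogues, Rpl3l, Rpl39l and Rps4y2 were near the floor in these cells, and Rpl7l1 was not. Rpl3l, known from striated muscle, was listed at 0.107 FPKM in Control 1, 0.108 FPKM in TGF-β1 1 and 0 in the other 4 libraries. Rpl39l, known from testis, was listed at 0.262 FPKM in TGF-β1 3 and at 0 elsewhere. Rps4y2 was at 2.05, 1.09 and 1.75 FPKM in Control and 3.92, 0.266 and 2.6 FPKM with TGF-β1, which is 0.0167% to 0.256% of Rps4x and rests on 2 to 32 fragments. Rpl7l1, at 2.70% to 3.17% of Rpl7, was at 33.4, 35.9 and 28.5 FPKM in Control and 35.8, 39 and 35.1 FPKM with TGF-β1, and its change of 0.17 was not called (adjusted p = 0.231, limma). The main copies were not called either, with changes of 0.038 for Rpl3, 0.23 for Rpl7 and 0.36 for Rps4x.

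Added together, the deposited FPKM of ribosomal protein mRNAs were higher with TGF-β1, but not when libraries were scaled to the sum of protein-coding rows. The summed FPKM of the 80 members was 123360 (Control 1), 116460 (Control 2) and 103187 (Control 3), and it was 137308 (TGF-β1 1), 125733 (TGF-β1 2) and 133371 (TGF-β1 3). All treated libraries were above all controls, with means of 114336 ± 10253 and 132138 ± 5885 FPKM (SD, n = 3), a ratio of 1.16. Without Rpl13a, Rps24 and Rps26 the ratio was 1.14 and the groups overlapped, and after median-ratio scaling of the libraries it was 1.18. After scaling to protein-coding rows, a setting added for these sums after seeing the data, the ratio was 1.01 and the groups overlapped. Those rows include members, and the same scaling moved the median log2 change of all rows to -0.19. In the deposited FPKM the sum over small-subunit proteins did not overlap between groups (ratio 1.19), while the sum over large-subunit proteins did (ratio 1.13). With the same scaling to protein-coding rows both sums overlapped, with ratios of 1.04 and 0.984. The large-subunit sum divided by the small-subunit sum was 1.14, 1.10 and 1.27 in Control 1 to 3 and 1.11, 1.08 and 1.12 in TGF-β1 1 to 3. Control 3 was highest in this ratio, and the groups overlapped. In bulk RNA of cultured cells, less RNA per cell and fewer cells of a type cannot be told apart, and FPKM gives shares of a library and not molecules per cell.

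**Figure D4:**
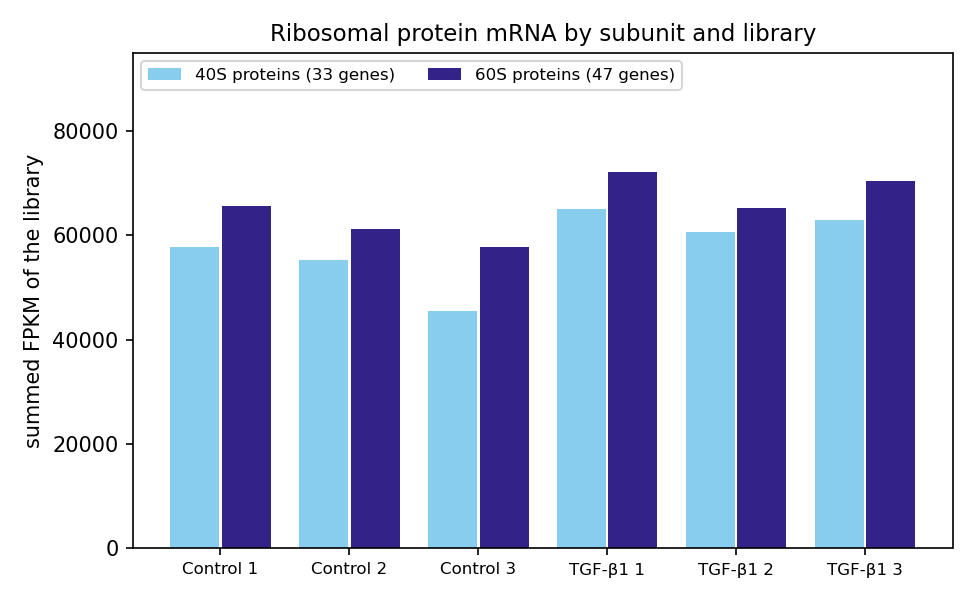
Summed FPKM of the small-subunit (light) and large-subunit (dark) protein genes in each library, on an axis from 0. The small-subunit sums of the TGF-β1 libraries all exceed those of Control, Control 3 is lowest for both subunits, and the large-subunit sums overlap between groups; after scaling to protein-coding rows, not drawn, both overlap.

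Ribosomal proteins that carry other symbols were read from the same fit. Gnb2l1, the older symbol of Rack1, a scaffold for kinases on the head of the small subunit, was at 1333, 1405 and 1305 FPKM in Control and 1966, 2181 and 1945 FPKM with TGF-β1. Rpl36al was at 261, 247 and 299 FPKM in Control and 345, 373 and 347 FPKM with TGF-β1. Both rose without overlap, by 0.59 (adjusted p = 0.00418) and 0.40 (adjusted p = 0.0173, limma) on the log2 scale. The transcript listed for Gnb2l1 is annotated as a retained intron, and the gene overlaps Trim41 on the opposite strand, so its reads may be shared. Fau, which is made as a fusion with a ubiquitin-like protein, had a change of -0.16 and was not called (adjusted p = 0.464, limma).

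Other mRNAs known for a TOP tract encode elongation and initiation factors and RNA-binding proteins. Of 16 tested, 5 rose, 1 fell and 10 were not called (37.5% called, beside 48.1% of all rows), with a median change of 0.11. Eef1g, a subunit of the factor that recharges elongation factor 1, was at 237, 245 and 218 FPKM in Control and 465, 499 and 463 FPKM with TGF-β1, which was the largest change of the list at 1.03 (adjusted p = 0.000231, limma). The abundant Eef1a1 (change 0.15), Eef2 (0.028), Tpt1 (0.11) and Npm1 (0.084) were not called, nor was Hnrnpa1, which had the most negative change at -0.40 (adjusted p = 0.0914, limma). As in the ribosomal proteins, the changes within the list were uneven.

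Factors that process rRNA and assemble the subunits included 18 that rose and 1 that fell among 31 tested, which is 61.3% called beside 48.1% of all rows, with a median change of 0.41 and 29 positive changes. Ncl, the nucleolar protein nucleolin, was at 54.1, 58 and 54 FPKM in Control and 82.9, 87.2 and 73.1 FPKM with TGF-β1, and Fbl, the rRNA methyltransferase fibrillarin, at 56.2, 47.6 and 49.7 and 61.4, 62.4 and 64.6 FPKM. Both rose without overlap, by 0.54 (adjusted p = 0.00386) and 0.29 (adjusted p = 0.0312, limma). Tsr1, a factor of late small-subunit assembly, had the largest change (1.34, adjusted p = 0.0313) on widely spread controls of 2.63, 5.87 and 10.5 FPKM, against 16.2, 17 and 14.1 FPKM with TGF-β1. Tsr2, a chaperone for Rps26, was the one that fell, from 13.2, 15.4 and 13.6 FPKM in Control to 10.3, 12 and 11.4 FPKM with TGF-β1 (change -0.30, adjusted p = 0.0421, limma). RNA polymerase I and its factors, which transcribe the rRNA genes, had 2 that rose and 4 that fell among 14 and a median of -0.0029. Their share called was 42.9%, near the 48.1% of all rows. Cd3eap, a polymerase I subunit, had a change of 0.53 (adjusted p = 0.00804) and Ubtf, which opens the rRNA genes, one of -0.53 (adjusted p = 0.00708, limma).

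Among 16 regulators of ribosome supply 6 rose and 4 fell (62.5% called, beside 48.1% of all rows, which themselves divided into 24.5% higher and 23.6% lower). Myc was at 7.75, 6.77 and 7.94 FPKM in Control and 34.4, 32.9 and 39.5 FPKM with TGF-β1, a log2 change of 2.11 (standard error 0.10, adjusted p = 3.53e-05, limma), the largest of the list. Mycn was low, at 1.87, 1.6 and 3.31 FPKM in Control, and fell to 0.863, 0.553 and 0.358 FPKM (change -1.01, adjusted p = 0.0132, limma). Mtor (change -0.11, adjusted p = 0.516) and Larp1 (change 0.17, adjusted p = 0.118, limma) were not called. Among 55 rows with initiation factor symbols, 29 rose and 3 fell, with a median of 0.38. The share called was 58.2% beside 48.1% of all rows, and the share called higher 52.7% beside 24.5%. That list was taken by symbol and so holds the Eif2ak kinases, Argonaute genes under their older Eif2c symbols and the pseudogene Eif4a-ps4, which had its largest change (1.61); Eif3m had the most negative one among those called (-0.40, adjusted p = 0.0324, limma).

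A pair of other large complexes were set beside the cytosolic ribosome. Mitochondrial ribosomal proteins, which belong to a separate ribosome, had 5 that rose and 9 that fell among 75 tested (18.7% called, beside 48.1% of all rows) and a median of 0.060. Their extremes were Mrps33, at 0.93 (adjusted p = 0.00711), and Mrps34, at -0.73 (adjusted p = 0.00131, limma). Subunits of the proteasome, which degrades proteins, had 21 that rose, beside 24.5% of all rows, and none that fell among 35 tested, with a median of 0.35. Psmd14, its deubiquitinase, had the largest change at 0.92 (adjusted p = 0.000936, limma), and Psmd9 the most negative at -0.17 (adjusted p = 0.55). Differences between these lists and the cytosolic ribosomal proteins were not tested.

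**Figure D5:**
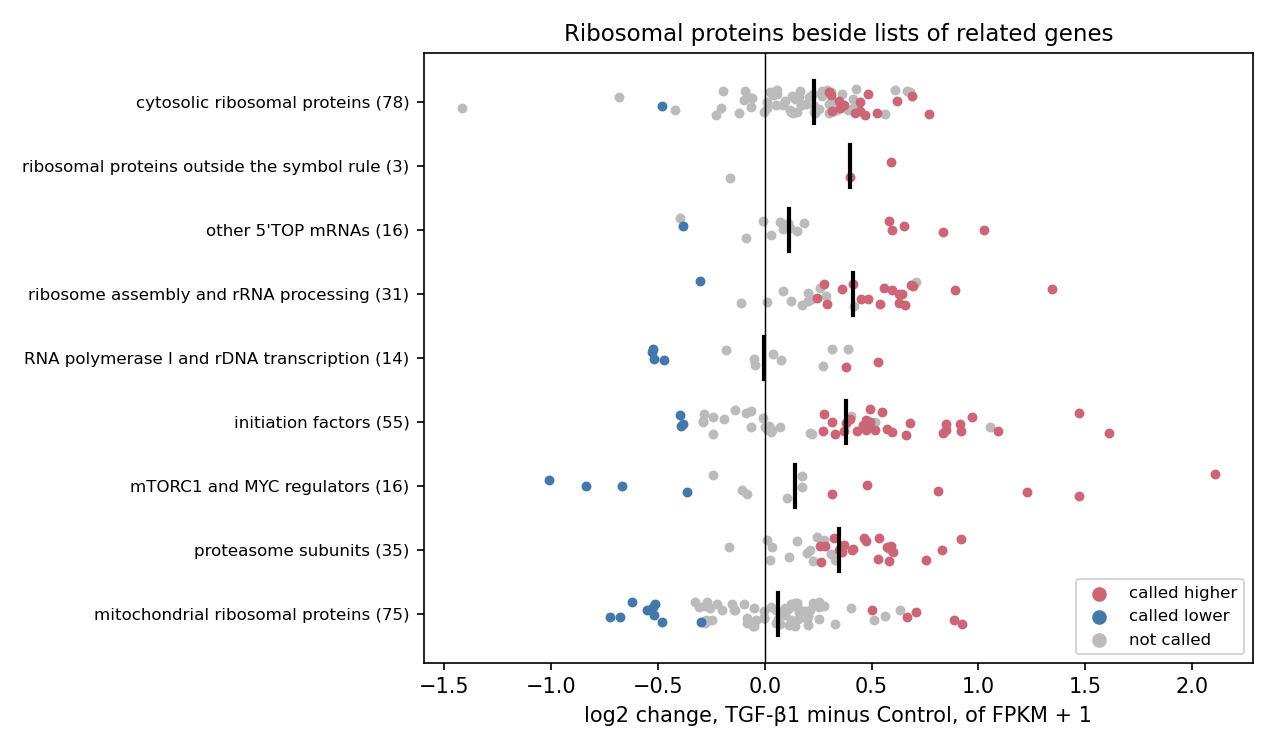
Log2 change (TGF-β1 minus Control, of FPKM + 1) of each gene tested in 9 lists, with the number tested in brackets, calls coloured and the median as a black line. The 78 cytosolic ribosomal proteins lie mostly between 0 and 0.7 with 16 calls; assembly factors, initiation factors and the proteasome have medians of 0.35 to 0.41, and mitochondrial ribosomal proteins a median of 0.060.

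Properties of the transcripts were set against the change over the 78 members as a description, since all members share the same libraries. Spearman's rho with the log2 change was -0.26 for GC content, 0.17 for transcript length and -0.040 for mean FPKM. Without Control 3 and TGF-β1 2 the value for GC content was 0.11, opposite in sign, and that for length was 0.19. Members with a single annotated transcript, for which FPKM corresponds to whole fragments, had 5 that rose and none that fell among 21 tested. Those with several transcripts had 10 and 1 among 57, and the medians were 0.16 and 0.25. The shares called higher were 23.8% and 17.5%, beside 24.5% of all tested rows. Ribosomal protein genes have many processed pseudogenes with near-identical sequence, and the assignment of shared reads between them and the members is not stated.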

How the data were processed

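Total RNA of 3 Control and 3 TGF-β1 libraries was sequenced. Per the labels and the methods of the study, reads of low quality were dropped by the authors, TopHat (TopHat2 2.0.11 in the submitters' processing notes) aligned the others to mouse build mm9, and Cufflinks gave FPKM. The deposited values are FPKM, 1 column per library, and no value column was left unmatched. The authors tested counts with DESeq; counts were not used here. Single-transcript genes gave whole fragments in 99.4% to 99.8% of low values (tolerance 0.05, fragment length 200 nt assumed), but genes with several transcripts in only 45.8% to 49.6%, so depth could be recovered and no count test was run.

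Groups came from the labels. TGF-β1 was compared with Control by limma 3.58.1 in R 4.3.3 (lmFit, eBayes with trend, two-sided) on log2(FPKM + 1), over the 11898 of 19730 rows with a mean of at least 1 FPKM, with Benjamini-Hochberg adjustment over all of them. The code was tested on simulated data. Lists were described by counts and medians. Gene positions and GC content are from mm9 (GENCODE M1 annotation), found for 19699 rows by transcript; start windows are from RefSeq (GRCm38.p6). The alternatives were pseudocounts of 0.1 and 5, no filter, a filter of 3 FPKM, no trend, an adjusted p under 0.01, 4 other scalings, the replicate block, replicate 2 as a batch term, replicates 1 and 3 alone, removal of GC and length trends, and leaving out each library. Tables were joined with pandas 2.3.3 and numpy 2.4.6 in Python 3.11.15. Correlations used scipy 1.17.1, and plots were drawn by matplotlib 3.10.9.

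The members and lists were chosen with earlier results of these data known. Named members were those with the largest called changes in each direction, the 3 most abundant, the stalk proteins, Rpsa, Rpl5, Rpl11, Rps6, Diamond-Blackfan anaemia genes and paralogue pairs; from each other list, the extremes in both directions and well-known genes. 1 gene outside the symbol rule is not reported here. Fragments behind a value could be recovered only for members with 1 annotated transcript, and all tests rest on the spread between 3 libraries a group.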

Additional observations from a re-analysis of the deposited data

How the results depend on the processing

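The median change of the members stayed positive in all alternatives (0.038 to 0.32) and above the median of all rows by 0.12 to 0.34. The count of 16 called members (beside 48.1% of all rows) fell to 6 (5 higher) with no filter, beside 30.5% of rows, to 9 (8 higher) with replicates 1 and 3 alone, beside 35.3%, and to 3 (2 higher) at an adjusted p under 0.01, where 3672 of all rows were called and 1727 of them were lower. It also fell where calls over all rows hardly changed, to 10 (9 higher) with scaling to the 75th percentile (47.9% of rows), 6 (5 higher) with quantile normalisation (46.3%) and 5 (4 higher) with scaling to protein-coding rows (49.9%). It was 21 with median-ratio scaling (48.3%) and 23 with GC and length trends removed (48.1%). The ratio of summed FPKM moved from 1.16 to 1.01 with scaling to protein-coding rows. Leaving out 1 library at a time gave 2 to 17 called members (2 to 16 higher, 0 to 1 lower), a median of 0.13 to 0.32 and 4419 to 5446 rows in all. Where a group was left with 2 libraries, the fit pools the spread with the other group. The share of members with a pyrimidine tract moved from 22.4% to 48.3% with the start sought within 5 bases and to 69.0% within 25 bases. The causes were not tested.

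Libraries of the same number deviated together with r of 0.092, 0.23 and 0.085 over all tested rows (replicates 1, 2 and 3), which is not above 0.1 for every pair, so the numbers were not taken as pairing the samples. Over the members alone r was 0.41, 0.61 and 0.16, each above 0.1; Control 1 also had r of 0.40 with TGF-β1 3. With the replicate block, 12 members were called (11 higher, 1 lower), 11 of them among the 16, and 5391 rows in all.

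Over 67 named genes and 21 alternatives, 1147 log2 changes kept their direction and side of the threshold, 165 were no longer past it, 14 newly passed it and 79 changed sign. Those that changed sign belonged to genes that were not called, as follows. With scaling to the 75th percentile Rplp1 (-0.0076), Rpl11 (-0.051), Rps19 (-0.026), Rpl3 (-0.025), Rpl36a (-0.036), Rps27 (-0.054), Eef2 (-0.035). With quantile normalisation Rplp1 (-0.11), Rpl11 (-0.22), Rps19 (-0.072), Rpl3 (-0.12), Rpl36a (-0.044), Mtor (0.037), Eef2 (-0.059), Npm1 (-0.011). With scaling to protein-coding rows of at least 300 nt Rplp1 (-0.14), Rpl5 (-0.031), Rpl11 (-0.18), Rps19 (-0.16), Rpl3 (-0.16), Rpl7l1 (-0.021), Rpl36a (-0.17), Rps27 (-0.19), Larp1 (-0.014), Eef1a1 (-0.044), Eef2 (-0.17), Tpt1 (-0.086), Npm1 (-0.11), Rps14 (-0.024). With replicates 1 and 3 alone Rplp2 (0.074), Rpl11 (-0.0056), Rpl36a (-0.036), Npm1 (-0.035), Rpl28 (0.22). Without both Control 3 and TGF-β1 2 Rplp2 (0.66), Rpl35a (0.0041), Rpl3 (-0.012), Rps27 (-0.37), Psmd9 (0.14), Tpt1 (-0.053), Rpl36 (0.12), Rps14 (-0.19), Rps21 (0.049). With a pseudocount of 0.1 Rps4y2 (-0.082). With GC and length trends removed Fau (0.083), Mtor (0.060), Npm1 (-0.062), Rpl28 (0.10). When libraries were left out in turn, the log2 change ranged across 0 for Rplp1 (-0.37 to 0.89), Rplp2 (-1.23 to 0.40), Rpl5 (-0.013 to 0.28), Rpl11 (-0.040 to 0.094), Rps19 (-0.00057 to 0.066), Rpl35a (-0.17 to 0.11), Rpl3 (-0.033 to 0.10), Rpl36a (-0.056 to 0.17), Rps4y2 (-0.28 to 0.70), Rps27 (-0.27 to 0.16), Psmd9 (-0.28 to 0.060), Eef2 (-0.037 to 0.15), Rpl28 (-0.56 to 0.22), Rpl36 (-2.14 to 0.016), Rps14 (-0.25 to 0.39), Rps29 (-0.21 to 0.84). Fragments could be recovered for 21 members, and among them depth was lowest for Rps4y2 (2 to 32 fragments) and for Rpl36 in TGF-β1 2 (88 fragments). Rpl3l and Rpl39l were at 0 in most libraries and fell under the filter.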

Other observations

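The table also holds 96 rows for ribosomal protein pseudogenes, a list taken after values had been seen. Of the 24 that could be tested, 5 were called higher and 2 lower (29.2%, beside 48.1% of all rows), with a median log2 change of 0.41. Rpl38-ps2 was at 181, 316 and 84.5 FPKM in Control 1 to 3 and at 437, 604 and 378 FPKM in TGF-β1 1 to 3, a log2 change of 1.45 (adjusted p = 0.0435, limma). Rpl19-ps1 was at 47.8, 53.3 and 76.0 FPKM in Control and 96.8, 133 and 101 FPKM with TGF-β1, a change of 0.90 (adjusted p = 0.0124, limma). In both, the groups did not overlap. Rpl14-ps1, at 221 to 304 FPKM in Control and 233 to 260 FPKM with TGF-β1, was not called (change -0.038). How reads were divided between these rows and the members was not tested.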
